A study of Homo sapiens with 16 samples.

Results

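The 40 genes described here encode the centromere, the kinetochore and the spindle checkpoint, and they were followed in 4 human non-small cell lung cancer lines given vehicle or a drug combination. The members were a list of gene symbols matched by Ensembl gene ID to the deposited table through GENCODE 29. All 40 of the 40 listed genes were found among the 28951 genes of the table. All 40 also passed the filter on low values, which asked for a mean of at least 1 log2 unit above the lowest value in the table and left 23968 genes for testing.

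The kinetochore is the protein assembly that ties each chromosome to the microtubules of the mitotic spindle. It is built on centromeric nucleosomes that hold the histone variant CENPA, through an inner layer that stays on chromatin and an outer layer that loads in mitosis and grips microtubules. The spindle checkpoint reads kinetochores without microtubules and holds back CDC20, the activator of the anaphase-promoting complex, until every chromosome is attached. Many of these genes are transcribed mainly in late S phase, G2 and mitosis, so their RNA is low in cells outside the cycle, and a fall in a bulk sample cannot tell fewer cells in those phases from less RNA per cell.

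The lines were H460, H1703, HCC827 and H441, all established cultures, and total RNA was sequenced after 48 hours. Vehicle cells received DMSO. Combination cells received 5 µM MYCi975, which inhibits the MYC transcription factor, together with 25 µM TMP195, an inhibitor of class IIa histone deacetylases. By the series' design text, H460 with H1703 counts as responsive to treatment and the pair of HCC827 and H441 as non-responsive, and single agents were not analysed here. Each of the 8 groups had 2 libraries, and no label says that they were separate cultures, so p-values measure the spread between these libraries, which may be technical. Each class held 2 lines, so a difference between the line classes covers the spread between libraries and not that between lines.

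Depth was 8493271 to 13604150 reads per library in the listed genes, and replicate libraries correlated at 0.976 to 0.985 across genes, which are not independent replicates. Of 5 epithelial markers, all were expressed in HCC827 and H441. In H460, KRT8 (17082 to 20062 normalised reads), KRT18 (3722 to 5308) and KRT19 (6890 to 11043) were expressed. CDH1 was at or near 0 there (0 to 0.787), with EPCAM at 3.06 to 8.80. In H1703, KRT18 lay between 145 and 195, KRT8 between 56.5 and 74.1 and CDH1 between 1.09 and 9.11 normalised reads. KRT19 lay between 0 and 1.09 there and EPCAM between 0 and 8.67. NKX2-1, a lung lineage factor, was expressed in HCC827 and H441 and lay between 0 and 5.84 normalised reads in H1703 and between 0 and 2.28 in H460. SFTPB, a lung epithelial marker, lay at 2.77 to 37.5 in HCC827 and 8.17 to 97.7 in H441. NAPSA, another, lay at 28.6 to 60.6 and 489 to 981 there. In H460 and H1703 both were at most 11.03. By the limma fit and call rule defined below, SFTPB was called lower in HCC827, at -2.17 ± 0.63 (adjusted p = 0.0328). SFTPB was lower in H441 too, at -2.35 ± 0.63 (adjusted p = 0.0374). NKX2-1 was called lower in H1703, at -1.46 ± 0.46 (adjusted p = 0.0182), and NAPSA in no line. The endothelial marker PECAM1 had 0 reads in H460 or H1703 and 1.09 to 10.1 normalised reads in HCC827 and H441. Of the 8 markers of other cell types, PTPRC, CD3E, LYZ and DCN had no gene matched by symbol in the deposited table, so no level is given. The monocyte marker CD68 lay between 0.701 and 24.7 normalised reads over the 16 libraries, the endothelial marker VWF between 0 and 4.73, and the fibroblast collagen COL1A1 between 0 and 133. Some of these low levels moved with treatment by the limma fit and call rule defined below: CD68 and VWF were called higher in H1703, with changes of 2.65 ± 0.50 (adjusted p = 0.000289) and 2.34 ± 0.62 (adjusted p = 0.0058), and COL1A1 was called lower in H460, at -2.15 ± 0.45 (adjusted p = 0.00114), and in HCC827, at -1.51 ± 0.45 (adjusted p = 0.0389). That is 1 of the 4 listed markers in H460, 2 in H1703 and 1 in HCC827, against 0 in H441, and PECAM1 was called in no line. Summed over the 4, normalised reads ran from 62.6 to 64.5 with vehicle and 17.3 to 19.4 with the combination in H460, and from 3.90 to 4.20 and then 20.5 to 30.5 in H1703. The sums were 75.1 to 86.1 and then 48.2 to 53.5 in HCC827, and 124 to 139.98 and then 88.1 to 96.7 in H441. The part of these markers in the changes of the members was not tested. Levels below are normalised reads, which are reads recovered from the deposited log2 values and divided by the size factor of the library. A change is the combination mean less the vehicle mean in the deposited log2 units, ± the standard error of a limma fit with 2 libraries a group. That scale compresses low counts, so it understates the fold change of genes with few reads. A gene was called lower or higher at an adjusted p under 0.05, with the adjustment over all 23968 genes, and no minimum change was asked.

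Promoter windows from RefSeq (GRCh38.p14) show what many members share around their start sites. Mitotic genes are known to carry the cell cycle homology region, or CHR, a short element bound by the DREAM and MMB complexes, often with CCAAT boxes bound by NF-Y. The sequences below run from 250 bases before to 30 bases after the start site, 5′ to 3′ on the strand of the gene. Capitals mark the CHR letters TTTGAA or TTCGAA, the CCAAT box CCAAT and the E-box CACGTG, the core MYC and MAX site, each on either strand. CENPW (chr6:126339865-126340144, plus strand), SPC25 (chr2:168890401-168890680, minus strand), MAD2L1 (chr4:120066819-120067098, minus strand) and CDCA8 (chr1:37692266-37692545, plus strand) are shown because they were among the members with the 2 largest changes of their role groups over the responsive lines. SGO1 (chr3:20186177-20186456, minus strand) is shown for the shugoshins. SGO2, which has CCAAT boxes but neither CHR nor E-box letters in its windows, is not shown. Nor are SPC24 and AURKB, which also fell in the responsive lines and lack CHR letters. MIS12 (chr17:5486316-5486595, plus strand) was chosen after its values were seen, as a member not called in 3 lines.
CENPW: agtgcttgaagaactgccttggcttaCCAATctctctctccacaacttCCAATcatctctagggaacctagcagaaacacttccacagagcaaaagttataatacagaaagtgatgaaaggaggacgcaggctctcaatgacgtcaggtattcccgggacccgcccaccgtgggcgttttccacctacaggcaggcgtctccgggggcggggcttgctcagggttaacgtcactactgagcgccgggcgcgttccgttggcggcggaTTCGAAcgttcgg
SPC25: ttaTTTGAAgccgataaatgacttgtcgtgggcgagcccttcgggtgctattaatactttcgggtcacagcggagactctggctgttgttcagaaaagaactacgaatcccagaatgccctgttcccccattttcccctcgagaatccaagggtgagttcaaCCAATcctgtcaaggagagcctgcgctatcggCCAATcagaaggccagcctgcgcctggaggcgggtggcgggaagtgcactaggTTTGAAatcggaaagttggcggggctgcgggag
MAD2L1: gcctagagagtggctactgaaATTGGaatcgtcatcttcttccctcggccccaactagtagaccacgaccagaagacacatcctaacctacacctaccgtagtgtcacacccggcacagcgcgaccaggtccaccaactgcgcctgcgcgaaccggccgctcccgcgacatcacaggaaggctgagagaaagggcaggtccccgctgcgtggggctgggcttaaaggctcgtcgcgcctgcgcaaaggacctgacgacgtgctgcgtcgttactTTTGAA
CDCA8: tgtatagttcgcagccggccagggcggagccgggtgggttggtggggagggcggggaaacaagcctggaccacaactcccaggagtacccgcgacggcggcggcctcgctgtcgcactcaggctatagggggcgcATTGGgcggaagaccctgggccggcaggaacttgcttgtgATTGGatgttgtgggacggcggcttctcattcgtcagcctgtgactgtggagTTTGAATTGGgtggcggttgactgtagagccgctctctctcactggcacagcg
SGO1: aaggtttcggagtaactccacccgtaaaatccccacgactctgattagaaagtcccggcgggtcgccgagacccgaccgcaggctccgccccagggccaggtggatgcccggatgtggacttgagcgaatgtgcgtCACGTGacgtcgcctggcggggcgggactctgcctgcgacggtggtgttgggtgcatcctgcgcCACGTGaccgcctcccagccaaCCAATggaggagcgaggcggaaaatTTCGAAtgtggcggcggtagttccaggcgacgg
MIS12: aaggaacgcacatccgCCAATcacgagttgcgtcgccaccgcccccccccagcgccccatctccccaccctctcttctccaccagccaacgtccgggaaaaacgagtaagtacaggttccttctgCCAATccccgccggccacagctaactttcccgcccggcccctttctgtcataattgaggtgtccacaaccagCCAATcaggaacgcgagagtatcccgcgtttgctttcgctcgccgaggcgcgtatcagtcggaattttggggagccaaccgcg

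In these windows, counted from the start site as position 1, the CHR letters begin at 18 in CENPW, 25 in MAD2L1, -3 in SPC25 and SGO1, and -23 in CDCA8. SPC25 has another copy at position -247. In CDCA8 the CHR overlaps one of its 3 CCAAT boxes, read on the minus strand. SGO1 was the only one of the 6 with the E-box letters, at positions -114 and -50 from the start site. Neither of the 2 RefSeq windows of MIS12 holds the CHR letters, and both hold CCAAT boxes.

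The full windows of the table, 300 bases from 250 before to 50 after the start site, were available for 33 of the 40 members. CHR letters were present in 19 of these 33 (57.58%), against 15.91% of the 12329 tested genes with a window. CCAAT boxes were found in 23 (69.7%), against 42.41% of genes. E-box letters occurred in 4 members (12.12%), close to the 11.91% of genes. CHR letters within 50 bases of the start site, a range chosen after the positions were seen, occurred in 17 members (51.52%) and in 5.053% of genes. Over the responsive lines the median log2 change was -1.72 for the 19 members with CHR letters and -1.28 for the 14 without, and the range of each set overlapped the other. A match is a description of letters and not of binding, and CENPL, KNL1, TTK, BUB3, CENPH, BIRC5 and CENPM had no entry.

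The combination lowered nearly the whole list in the responsive lines, most of it in HCC827 and almost none of it in H441. In H460, 38 of the 40 genes were called lower, where 12.6% of all tested genes were, and the median change of the 40 was -1.56 against 0.05 over all genes. In H1703, 37 were called lower against 17.6% of genes, and the median was -1.35 against 0.08. In HCC827, 28 were called lower against 5.5% of genes, and the median was -0.65. In H441, 1 was called lower against 1.86% of genes, which is near the background, and the median was -0.13. The median over all genes was 0 in both HCC827 and H441.

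No member was called higher in any of the 4 lines by limma, while 14.1% of genes were called higher in H460, 17.9% in H1703 and 4.42% in HCC827, against 2.77% in H441. The combination's effect averaged over each class gave 38 members lower (17.9% of genes) and 0 higher (20.6%) in the responsive mean, with a median of -1.49, and 20 lower (6.05%) and 0 higher (6.25%) in the non-responsive mean, with a median of -0.36. At an unadjusted p under 0.05, 39 and 31 members were lower and 0 higher in these means, and voom called 39 and 26 lower and 0 higher. In single lines at an unadjusted p under 0.05, 0 members were higher in H460, H1703 and HCC827 and 1 was in H441, and limma voom on the recovered reads also called 0 higher in each line. Centring each library on its median shifted all genes by -0.19 in H460 and -0.24 in H1703, and the members' medians then became -1.76 and -1.60. Over all genes that centring moved the share of calls that were higher, in the mean of the responsive lines, from 53.6 to 32.2%.

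**Figure D1:**
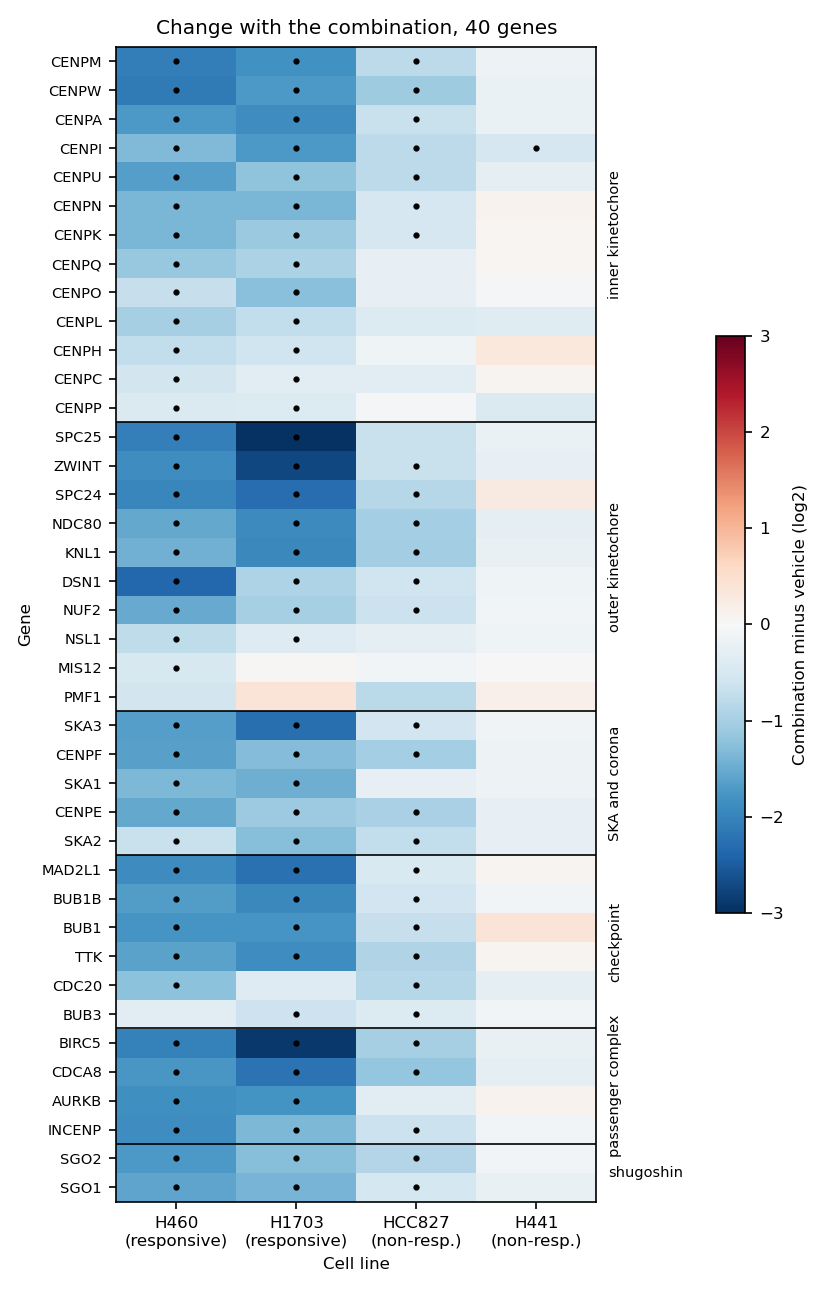
Change of each of the 40 genes in each line, in log2 units as combination less vehicle, with genes in rows by role, lines in columns and black dots on called changes. H460 and H1703 hold the strongest falls, HCC827 smaller ones, and H441 values between -0.50 and 0.40.

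The summed reads of the 40 genes, a description with no test, showed the same order of lines. In H460 they made up 3677 and 3792 RPM, that is reads scaled to the total reads in listed genes, with vehicle and 1218 and 1363 with the combination. In H1703 the sums were 3590 and 3887 with vehicle and 1610 and 1402 with the combination. HCC827 went from 3278 and 3234 to 2247 and 1889. H441 went from 3305 and 3208 to 3004 and 2768. In each line both combination libraries lay below both vehicle libraries, and the gap in H441 was the narrowest. These sums weight abundant genes such as CENPF, so the counts of genes below are the main description.

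**Figure D2:**
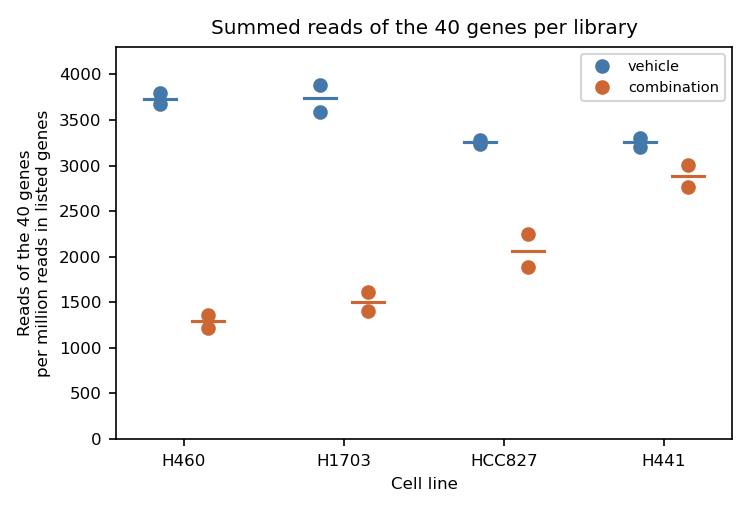
Summed reads of the 40 genes in each of the 16 libraries, in RPM over listed genes, with points for single libraries by line and treatment. Combination libraries lie between 1218 and 1610 in H460 and H1703, and between 1889 and 3004 in HCC827 and H441.

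Counted over lines, 1 member (CENPI) was called lower in all 4, 25 in 3 lines, 12 in 2, 1 (MIS12) in H460 alone and 1 (PMF1) in none. Of all tested genes, 0.384% were lower in all 4 lines and 2.57% in H460, H1703 and HCC827. Compared by library, both combination libraries lay below both vehicle libraries for all 40 members in H460 (25.3% of genes), 38 in H1703 (29.4%), 38 in HCC827 (25.4%) and 17 in H441 (22.4%). The exceptions in H1703 were MIS12 and PMF1, and those in HCC827 were MIS12 and CENPP. Across the 40 members the changes correlated at r = 0.74 between H460 and H1703, 0.56 between H460 and HCC827, and 0.04 between H460 and H441, where points share the libraries of a line.

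Among the counts in single lines, that of HCC827 moved by the most genes when 1 library was left out. Lower calls over all tested genes in HCC827 also became fewer without combination library 2 or vehicle library 1 of that line. Without combination library 2 of HCC827, 15 members were called lower in place of 28, and without vehicle library 1 of HCC827, 17 were. The calls lost without combination library 2 were those of BUB1, BUB3, CENPA, CENPK, CENPM, CENPN, CENPW, DSN1, MAD2L1, NUF2, SGO1, SKA3 and ZWINT. Their adjusted p without that library ran from 0.0840 for SKA3 to 0.392 for NUF2, and was 0.236 for CENPW, 0.190 for CENPA, 0.284 for DSN1, 0.249 for MAD2L1, 0.102 for BUB1 and 0.105 for ZWINT. Of the 28 calls, 14 held in all 25 alternatives run, and among these were BIRC5, CDCA8, CENPF, CENPE, NDC80, KNL1, TTK and CDC20. In contrast 35 of the 38 calls in H460 and 33 of the 37 in H1703 held in all 25.

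The inner kinetochore group, with the centromeric histone, had 13 members. All 13 were called lower in H460 and in H1703, 7 in HCC827 and 1 in H441, with medians of -1.33, -1.20, -0.50 and -0.16. Its largest changes over the responsive lines were those of CENPM and CENPW, and its smallest was that of CENPP.

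CENPM (chr22:41938721-41947164), a subunit of the constitutive centromere network beside CENPH, CENPI and CENPK, had 85.1 and 92.03 normalised reads in the vehicle libraries of H460 and 22.4 and 15.96 with the combination, 185 and 174 against 65.3 and 36.3 in H1703, 73.9 and 82.03 against 42.3 and 45.2 in HCC827, and 162 and 163 against 171 and 123 in H441. The ratio of mean normalised reads, combination to vehicle, was 0.217 in H460, and the groups were apart in 3 lines and overlapped in H441. Its change was -2.08 ± 0.24 in H460 (adjusted p = 1.23e-06), -1.82 ± 0.24 in H1703 (adjusted p = 4.34e-06), -0.79 ± 0.24 in HCC827 (adjusted p = 0.04) and -0.16 ± 0.24 in H441 (adjusted p = 0.827).

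CENPW (chr6:126340174-126348875), the histone-fold partner of CENPT, had 106 and 120.3 normalised reads in the vehicle libraries of H460 and 22.4 and 25.1 with the combination, 110.1 and 130.3 against 41.4 and 28.4 in H1703, 77.6 and 73.9 against 48.2 and 24.9 in HCC827, and 123 and 94.4 against 103 and 86.2 in H441. Vehicle libraries were highest and clear of the combination libraries in H460, H1703 and HCC827, and the H441 groups overlapped. Changes were -2.13 ± 0.26, -1.73 ± 0.26, -1.06 ± 0.26 and -0.19 ± 0.26 in the same order of lines, and the first 3 were called.

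CENPI (chrX:101098218-101163681), which helps to load new CENPA, was the single gene called in all 4 lines, with 333 and 325 normalised reads in the vehicle libraries of H460 and 124 and 135 with the combination, 323 and 398 against 106 and 107 in H1703, 273 and 245 against 154 and 142 in HCC827, and 318 and 301 against 214 and 222 in H441. Both combination libraries were lower in every line, and the H441 gap was the smallest. The change was -1.33 ± 0.13 in H460, -1.73 ± 0.13 in H1703, -0.79 ± 0.13 in HCC827, and for H441 it was -0.50 ± 0.13, where the adjusted p was 0.0299. That H441 call was lost without any 1 of the 4 H441 libraries, with the highest adjusted p, 0.183, without vehicle library 1, and it was also lost with median centring.

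CENPA (chr2:26764289-26801067), the histone that marks the centromere, had 271 and 346 normalised reads in the vehicle libraries of H460 and 76.5 and 107 with the combination, 499 and 528 against 140.5 and 139 in H1703, 292 and 259 against 198 and 150.3 in HCC827, and 318 and 352 against 292 and 287 in H441. Its groups did not overlap in any line, and the levels in H1703 started highest. The change was -1.73 ± 0.16 in H460, -1.86 ± 0.16 in H1703 and -0.67 ± 0.16 in HCC827, all called, and -0.21 ± 0.16 in H441 (adjusted p = 0.589). CENPN, which reads the CENPA nucleosome, fell in 3 lines, with changes of -1.37 ± 0.13 in H460, -1.37 ± 0.13 in H1703 and -0.51 ± 0.13 in HCC827, and had a value of 0.10 ± 0.13 in H441. Its partner CENPL fell in the responsive lines, with changes of -0.99 and -0.74. CENPU, of the group that recruits Polo-like kinase, fell in 3 lines, with changes of -1.65 ± 0.11 in H460, -1.20 ± 0.11 in H1703 and -0.78 ± 0.11 in HCC827.

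CENPC, the link from CENPA to the outer layer, had changes of -0.55 ± 0.12 in H460 and -0.33 ± 0.12 in H1703 (adjusted p = 0.0489), and the H1703 call was lost in 15 of the 25 alternatives. CENPH, a partner of CENPI and CENPK, had changes of -0.73 ± 0.16 in H460 and -0.59 ± 0.16 in H1703, both called, and values of -0.13 ± 0.16 in HCC827 and 0.31 ± 0.16 in H441, neither called. CENPP, a partner of CENPO, CENPQ and CENPU, had 557 and 551 normalised reads in the vehicle libraries of H460 and 399.7 and 414 with the combination, 199.7 and 212 against 160.1 and 147 in H1703, 448 and 492 against 412 and 498 in HCC827, and 261 and 277 against 175 and 225 in H441. Combination libraries lay below vehicle libraries in H460, H1703 and H441, and the groups overlapped in HCC827. The changes were -0.44 ± 0.13 (adjusted p = 0.0129), -0.42 ± 0.13 (adjusted p = 0.0146), -0.05 ± 0.13 (adjusted p = 0.883) and -0.43 ± 0.13 (adjusted p = 0.0612) in H460, H1703, HCC827 and H441. CENPP was called lower in H441 without combination library 2 of that line, with an adjusted p of 0.0328. The gene IPPK on the other strand covers 37.97% of the CENPP exon bases, and ADCY3 covers 26.97% of those of CENPO. Also on the other strand, CMC2 covers 12.81% of the exon bases of CENPN, PRIMPOL 11.72% for CENPU and DERL2 9.534% for MIS12. Whether strand was used in counting is not stated in the labels, so these genes are uncertain, with the largest shares in CENPP and CENPO.

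Of the inner group, calls of CENPC, CENPH and CENPP in H1703 were lost without combination library 2 of H1703, with adjusted p of 0.279, 0.0801 and 0.104. Those of CENPH and CENPP in H460 were lost without combination library 1 and without vehicle library 2 of H460. The H460 call of CENPP was also lost without vehicle library 1. That of CENPH was also lost in the limma fit of the H460 libraries alone, with an adjusted p of 0.151. The remaining members, CENPK and CENPQ, were lower in both responsive lines. CENPK had changes of -1.36 ± 0.11 in H460 and -1.12 ± 0.11 in H1703, CENPQ of -1.14 ± 0.16 in H460 and -0.96 ± 0.16 in H1703, and CENPO, also lower in both, of -0.70 ± 0.11 in H460 and -1.25 ± 0.11 in H1703.

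The outer kinetochore had 10 members, of which 9 were called lower in H460, 8 in H1703 and 6 in HCC827, against 0 in H441. Medians were -1.53, -1.45, -0.67 and -0.13. Over the responsive lines SPC25 and ZWINT changed most and PMF1 had the value closest to 0.

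SPC25 (chr2:168834132-168913371), a subunit of the NDC80 complex that anchors it to the inner layer, had 378 and 370.5 normalised reads in the vehicle libraries of H460 and 87.7 and 90.1 with the combination, 309.7 and 289 against 41.4 and 30.7 in H1703, 159 and 107 against 101 and 65.5 in HCC827, and 204 and 183 against 198 and 142 in H441. The ratio of mean normalised reads was 0.120 in H1703 and 0.238 in H460. HCC827 libraries were apart but close, and the H441 groups overlapped. The change was -2.04 ± 0.22 (adjusted p = 3.82e-07) in H460 and -2.97 ± 0.22 (adjusted p = 1.4e-09) in H1703. It was -0.66 ± 0.22 (adjusted p = 0.0579) in HCC827 and -0.20 ± 0.22 (adjusted p = 0.721) in H441, neither of them called. SPC25 was called in HCC827 without vehicle library 2 or combination library 1 of that line, with adjusted p of 0.0332 and 0.0183.

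ZWINT (chr10:56357228-56361275), which binds KNL1 and brings the RZZ complex to kinetochores, had 752 and 619.8 normalised reads in the vehicle libraries of H460 and 189.7 and 181 with the combination, 579 and 555 against 103 and 65.4 in H1703, 289.6 and 289 against 189 and 172 in HCC827, and 480.4 and 447 against 359 and 426 in H441. In each line all libraries of the combination lay below those of vehicle, with the widest gap in H1703. Its change was -1.87 ± 0.16 in H460, -2.74 ± 0.16 in H1703, -0.67 ± 0.16 in HCC827 (adjusted p = 0.0094) and -0.24 ± 0.16 in H441 (adjusted p = 0.485).

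SPC24, the partner of SPC25, had changes of -1.95 ± 0.15 in H460, -2.29 ± 0.15 in H1703 and -0.85 ± 0.15 in HCC827, all called, and stood at 0.26 ± 0.15 in H441, where both combination libraries were above both vehicle libraries. NDC80, the microtubule-binding subunit, fell in 3 lines, with changes of -1.54 ± 0.12 in H460, -1.90 ± 0.12 in H1703 and -1.02 ± 0.12 in HCC827. Its partner NUF2 also fell in these lines, with changes of -1.52 ± 0.18, -1.003 ± 0.18 and -0.64 ± 0.18. In H441 the values were -0.29 ± 0.12 for NDC80 and -0.09 ± 0.18 for NUF2, and neither was called. KNL1, the scaffold that recruits BUB1, fell in the same lines, with changes of -1.45 ± 0.11 in H460, -1.94 ± 0.11 in H1703 and -1.04 ± 0.11 in HCC827.

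DSN1 and MIS12 belong to the MIS12 complex, which joins the inner to the outer layer, and are described here because of their values. DSN1 (chr20:36751791-36773818) had 256 and 224 normalised reads in the vehicle libraries of H460 and 50.98 and 38.8 with the combination, 183 and 213 against 91.5 and 116 in H1703, 227 and 221 against 161 and 133 in HCC827, and 379.9 and 292 against 344 and 273 in H441. The H460 fall was the largest of the 40 genes in that line, at -2.36 ± 0.18, while the change was -0.92 ± 0.18 in H1703 and -0.60 ± 0.18 in HCC827, and the H441 value was -0.12 ± 0.18. MIS12 (chr17:5486285-5490814) had 564 and 495 normalised reads in the vehicle libraries of H460 and 373 and 379 with the combination, 389.6 and 409 against 453 and 374 in H1703, 378 and 387 against 391 and 331 in HCC827, and 288 and 329.9 against 274 and 336 in H441. Its groups were apart in H460 and overlapped in the other 3 lines, with changes of -0.49 ± 0.13 (adjusted p = 0.00644) in H460 and 0.04 ± 0.13 (adjusted p = 0.85) in H1703. The H460 call was lost without vehicle library 1 of H460, with an adjusted p of 0.0898. NSL1, another subunit, fell in the responsive lines, with changes of -0.75 ± 0.13 in H460 and -0.38 ± 0.13 in H1703, and the H1703 call was lost without combination library 2 of H1703, with an adjusted p of 0.201.

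PMF1 (chr1:156212993-156240042), also of that complex, was the lowest member per kilobase, with 44.02 and 40.1 normalised reads in the vehicle libraries of H460 and 29.6 and 26.2 with the combination, 11.7 and 28.02 against 22.9 and 26.8 in H1703, 69.1 and 59.7 against 32.9 and 37.8 in HCC827, and 36.4 and 27.1 against 35.3 and 35.4 in H441. Its groups overlapped in H1703 and H441 and none of its changes was called: they were -0.55 ± 0.31, 0.39 ± 0.31, -0.82 ± 0.31 and 0.15 ± 0.31. Counting error is wide at this level, and 23.29% of its exon bases are shared with the readthrough gene PMF1-BGLAP, so reads of the 2 could have been split or dropped. Without vehicle library 2 of H1703 it was called higher there, at 0.94 with an adjusted p of 0.0350.

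The SKA complex, which tracks microtubule ends, and the corona proteins CENPE and CENPF formed a group of 5. All 5 were called lower in H460 and H1703, 4 in HCC827 and 0 in H441, with medians of -1.54, -1.30, -0.75 and -0.15. SKA3 (chr13:21153595-21176602) had 448 and 449.9 normalised reads with vehicle and 131 and 152 with the combination in H460, 707 and 755 then 156 and 145 in H1703, 405 and 354 then 275 and 234 in HCC827, and 530.1 and 455 then 457 and 458 in H441. The widest gap was in H1703, with a ratio of mean normalised reads of 0.206, and the H441 groups overlapped. The change was -1.65 ± 0.12 in H460, -2.26 ± 0.12 in H1703, -0.57 ± 0.12 in HCC827 (adjusted p = 0.00394) and -0.10 ± 0.12 in H441. SKA1 fell in the responsive lines, with changes of -1.35 ± 0.16 in H460 and -1.47 ± 0.16 in H1703, and its HCC827 value was -0.25 ± 0.16 (adjusted p = 0.38).

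CENPF (chr1:214603195-214664588), a large coiled-coil protein that binds dynein regulators, had 8804 and 9397 normalised reads with vehicle and 2559 and 3334 with the combination in H460, 8308 and 8467 then 3933 and 2954 in H1703, 9438 and 9559 then 5245 and 4174 in HCC827, and 5814 and 5939 then 5397 and 5263 in H441. Per kilobase its vehicle means were the highest of the list in each line, and the groups were apart in all 4 lines. Its change was -1.64 ± 0.13, -1.30 ± 0.13 and -1.02 ± 0.13 in H460, H1703 and HCC827, all called, and -0.14 ± 0.13 in H441 (adjusted p = 0.679). The kinesin CENPE, which carries chromosomes towards the plate, had changes of -1.54 ± 0.18, -1.09 ± 0.18 and -0.96 ± 0.18 in these lines, all called, and a value of -0.24 ± 0.18 in H441, which was not.

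SKA2 (chr17:59109951-59155269) had the smallest change of the group over the responsive lines, with 1427 and 1439 normalised reads with vehicle and 799 and 1024 with the combination in H460, 869.7 and 887 then 339 and 390.1 in H1703, 2290.4 and 2113 then 1479 and 1162 in HCC827, and 1299 and 1324 then 1159.5 and 1064 in H441. Both treated libraries were below both controls in every line. The change was -0.66 ± 0.12 in H460, -1.27 ± 0.12 in H1703 and -0.75 ± 0.12 in HCC827, all called, and -0.24 ± 0.12 in H441, which was not.

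Of the 6 checkpoint genes, 5 were called lower in H460, 5 in H1703 and 6 in HCC827, against 0 in H441. Medians were -1.64, -1.81 and -0.64 in the first 3 lines and close to 0 in H441. MAD2L1 (chr4:120055608-120067074), the MAD2 protein that captures CDC20, had 1685 and 1638 normalised reads in the vehicle libraries of H460 and 386 and 515 with the combination, 952 and 1109 against 219 and 215 in H1703, 1085 and 982 against 829 and 682 in HCC827, and 1469.9 and 1571 against 1618 and 1587 in H441. In H441 both combination libraries lay above both vehicle libraries, and in the other lines they lay below. The change was -1.89 ± 0.12 (adjusted p = 2.9e-10) in H460, -2.23 ± 0.12 (adjusted p = 2.11e-11) in H1703, -0.46 ± 0.12 (adjusted p = 0.0175) in HCC827 and 0.08 ± 0.12 (adjusted p = 0.841) in H441.

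BUB1B (chr15:40161023-40221136), the checkpoint protein BubR1, had 1709.9 and 1789 normalised reads in the vehicle libraries of H460 and 506 and 584 with the combination, 1558 and 1530.1 against 478 and 344 in H1703, 1331 and 1291 against 908 and 849 in HCC827, and 1587 and 1506 against 1504 and 1419.8 in H441. Libraries did not overlap in any line. It fell in 3 lines, with changes of -1.68 ± 0.11 in H460, -1.92 ± 0.11 in H1703 and -0.58 ± 0.11 in HCC827, and the H441 value was -0.08 ± 0.11 (adjusted p = 0.811). A readthrough gene, BUB1B-PAK6, shares 10.21% of its exon bases. The kinase TTK, known as MPS1, fell likewise, with changes of -1.59 ± 0.15 in H460, -1.85 ± 0.15 in H1703 and -0.90 ± 0.15 in HCC827.

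BUB1 (chr2:110637698-110678114), the kinase that marks centromeric chromatin for the shugoshins, is described for its values in H441 and had 1791 and 1901 normalised reads in the vehicle libraries of H460 and 475 and 613 with the combination, 1085 and 1340.3 against 376 and 329 in H1703, 1555 and 1503 against 1106 and 799.6 in HCC827, and 1118 and 997 against 1506 and 1284 in H441. In H441 both combination libraries were above both vehicle libraries, with a change of 0.40 ± 0.14 (adjusted p = 0.126) that was not called. In the other lines it fell, with changes of -1.77 ± 0.14 in H460, -1.77 ± 0.14 in H1703 and -0.70 ± 0.14 in HCC827.

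BUB3 (chr10:123154277-123170467), the WD40 partner of both BUB1 and BUB1B, had the smallest change of the checkpoint genes, with 956 and 931 normalised reads in the vehicle libraries of H460 and 666 and 859.8 with the combination, 657 and 702 against 443 and 444 in H1703, 627 and 687 against 539 and 452 in HCC827, and 521 and 483 against 526 and 430.3 in H441. Treated libraries were lower than controls in H460, H1703 and HCC827, and the H441 groups overlapped. It fell with changes of -0.61 ± 0.12 in H1703 and -0.41 ± 0.12 in HCC827, and the H460 change of -0.32 ± 0.12 was not called (adjusted p = 0.0635). With median centring that value became -0.51 with an adjusted p of 0.00478, and without combination library 2 of H460 it was -0.50 with an adjusted p of 0.00857. The HCC827 call of BUB3 was lost without combination library 2 of HCC827, with an adjusted p of 0.344. CDC20 (chr1:43358955-43363203), described for its H1703 value, had 656 and 592 normalised reads with vehicle and 226 and 311 with the combination in H460, 507 and 668 then 492 and 408 in H1703, 1255 and 1159 then 741 and 605 in HCC827, and 805 and 841 then 694 and 664 in H441. Combination libraries were lower in each line, by least in H1703 and H441. It fell with changes of -1.22 ± 0.15 in H460 and -0.85 ± 0.15 in HCC827. In H1703 its value was -0.38 ± 0.15 (adjusted p = 0.0518), not called. It was called there with median centring, at -0.62 with an adjusted p of 0.00366, and without vehicle library 1 of H1703, at -0.57 with an adjusted p of 0.0150.

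The chromosomal passenger complex corrects faulty attachments and has 4 subunits. All 4 were called lower in H460 and H1703, 3 in HCC827 and 0 in H441, with medians of -1.85, -1.998, -0.82 and -0.15. BIRC5 (chr17:78214186-78225636), also known as survivin, had 1401 and 1238 normalised reads in the vehicle libraries of H460 and 307 and 339.8 with the combination, 829.8 and 900.3 against 119 and 110.3 in H1703, 813 and 718 against 434 and 338 in HCC827, and 893 and 869 against 737 and 781 in H441. Libraries were apart in all 4 lines, and H1703 combination levels were at a ratio of 0.132 to vehicle. The change was -2.02 ± 0.12 (adjusted p = 8.79e-11) in H460, -2.89 ± 0.12 (adjusted p = 3.78e-13) in H1703, -0.99 ± 0.12 (adjusted p = 1.11e-05) in HCC827 and -0.22 ± 0.12 (adjusted p = 0.363) in H441.

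CDCA8 (chr1:37692418-37709719), or borealin, had 573 and 536 normalised reads in the vehicle libraries of H460 and 170.3 and 159 with the combination, 554 and 606 against 133 and 114 in H1703, 739 and 794 against 353 and 331 in HCC827, and 1209 and 1215 against 1026 and 955 in H441. The groups did not overlap in any line, and the vehicle libraries of H441 were the highest. It fell with changes of -1.74 ± 0.10 in H460, -2.21 ± 0.10 in H1703 and -1.16 ± 0.10 in HCC827, and the value in H441 was -0.29 ± 0.10 (adjusted p = 0.118). AURKB, the kinase of the complex, fell in the responsive lines, with changes of -1.83 ± 0.11 in H460 and -1.79 ± 0.11 in H1703, and its HCC827 value of -0.33 ± 0.11 was not called (adjusted p = 0.0629).

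INCENP (chr11:62123973-62153163), the scaffold of the complex, showed the smallest fall of the 4 over the responsive lines, with 1079 and 1100.4 normalised reads with vehicle and 296 and 299.9 with the combination in H460, 1144 and 1188 then 480.3 and 438 in H1703, 1352 and 1419.7 then 932 and 847 in HCC827, and 1629 and 1525 then 1492 and 1482 in H441. Groups were apart in all lines, most narrowly in H441. The change was -1.86 ± 0.08 in H460, -1.34 ± 0.08 in H1703, -0.64 ± 0.08 in HCC827, and for H441 it was -0.08 ± 0.08, the last not called.

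Shugoshins protect cohesin at the centromere until anaphase, and both were called lower in H460, H1703 and HCC827 and neither in H441. SGO1 (chr3:20160593-20186292) had 351 and 394 normalised reads in the vehicle libraries of H460 and 104 and 144 with the combination, 599.9 and 648 against 283 and 199 in H1703, 318 and 320.0 against 239 and 203 in HCC827, and 509 and 438 against 402 and 402 in H441. Combination libraries were below vehicle libraries in each line. Its changes were -1.58 ± 0.16, -1.38 ± 0.16 and -0.53 ± 0.16 (adjusted p = 0.0401) in the first 3 lines, and -0.23 ± 0.16 (adjusted p = 0.52) in H441. Without combination library 2 of HCC827 the HCC827 value had an adjusted p of 0.292. The antisense gene SGO1-AS1 shares 17.74% of the SGO1 exon bases, so reads of the pair may not be told apart. SGO2 (chr2:200510008-200583782) had 2534 and 2479 normalised reads with vehicle and 713 and 815 with the combination in H460, 1644 and 1623 then 746 and 601 in H1703, 2060.2 and 2045 then 1208 and 1028 in HCC827, and 1589 and 1623 then 1608 and 1412 in H441. Its groups overlapped in H441 alone, and the change was -1.71 ± 0.10 in H460, -1.28 ± 0.10 in H1703 and -0.88 ± 0.10 in HCC827.

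**Figure D3:**
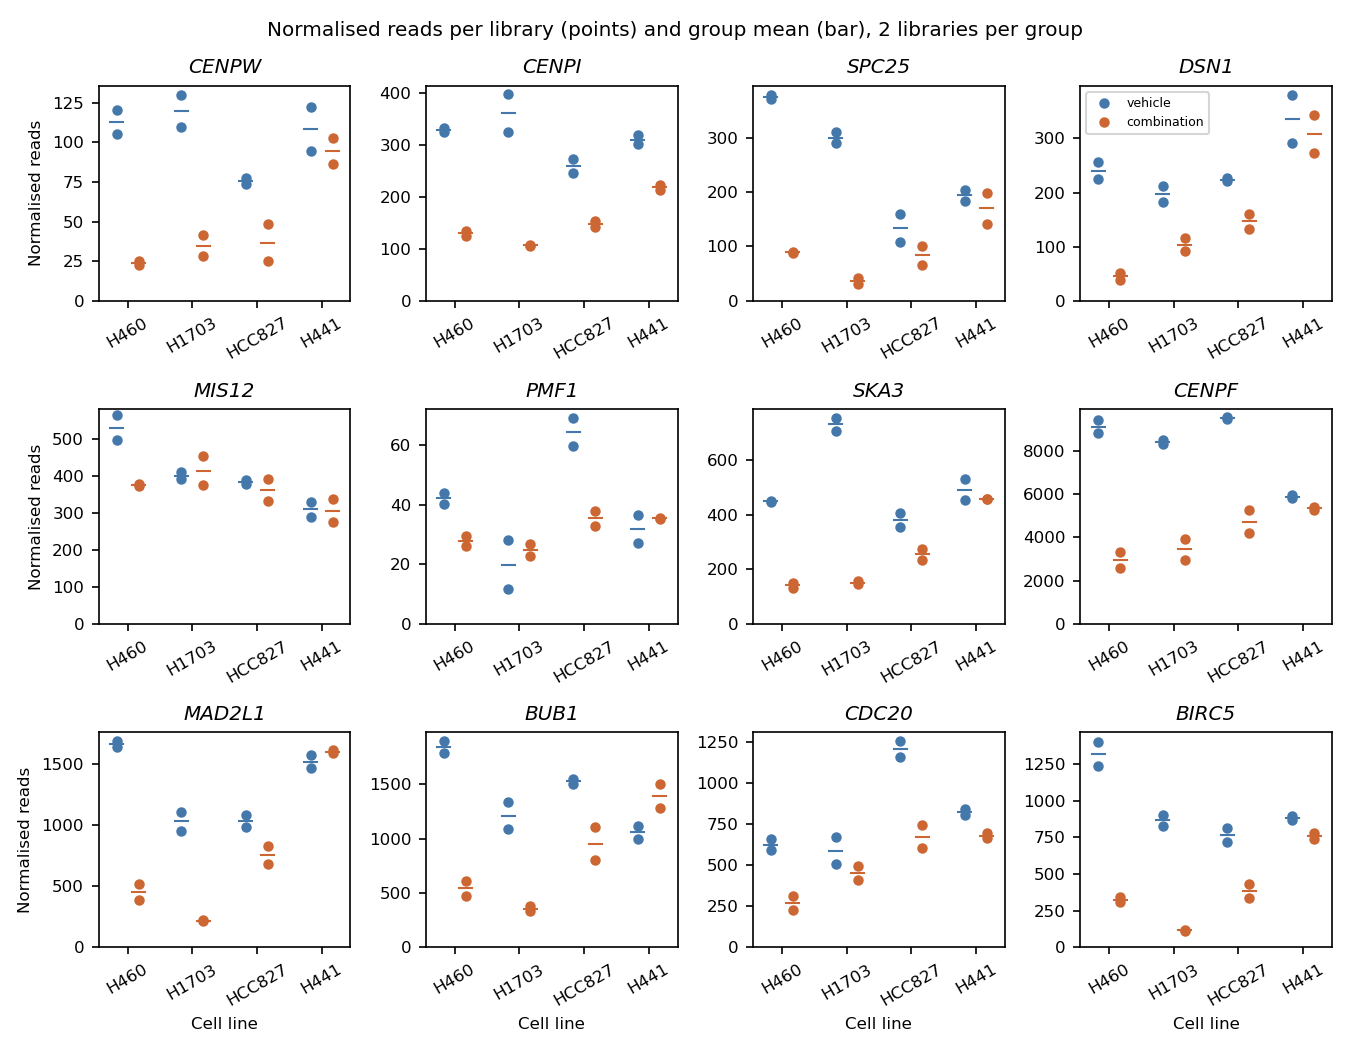
Normalised reads of 12 members on linear axes that start at 0, with points for libraries, short bars for group means, lines on the x axis and colours for treatment. Combination points lie below vehicle points in H460, H1703 and HCC827 for all but MIS12 and PMF1. In H441 they lie below vehicle points for CENPI, CDC20, BIRC5 and CENPF. There they lie above vehicle points for BUB1 and, narrowly, for MAD2L1, and the groups overlap for the rest.

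Responses were then compared between the line classes, which tests the difference itself. The fall was larger in the responsive lines for 34 of the 40 genes by limma, where 12.1% of tested genes had a lower call, and 0 had a higher call against 11.2%. At an unadjusted p under 0.05, 35 members were lower and 0 higher, and voom called 34 and 0. The median difference was -1.06, against 0.07 over all genes, and became -1.27 with median centring. For 34 of the 40 genes the changes in both responsive lines lay below those in both non-responsive lines, as for 19.1% of tested genes. The exceptions were BUB3, CDC20, CENPP, MIS12, PMF1 and SKA2.

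SPC25 had the largest class difference, -2.07 ± 0.22 (adjusted p = 5.98e-07), followed by MAD2L1 at -1.87 ± 0.12 (adjusted p = 1.02e-09) and BIRC5 at -1.85 ± 0.12 (adjusted p = 8.37e-10). They belong to the NDC80 complex, the checkpoint and the passenger complex. ZWINT and SPC24 came next at -1.85 ± 0.16 and -1.83 ± 0.15. By contrast CENPC (-0.31 ± 0.12), BUB3 (-0.22 ± 0.12), CDC20 (-0.24 ± 0.15), CENPP (-0.19 ± 0.13), MIS12 (-0.17 ± 0.13) and PMF1 (0.25 ± 0.31) were not called. NSL1 was called at -0.36 but lost the call in 13 of 24 alternatives.

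**Figure D4:**
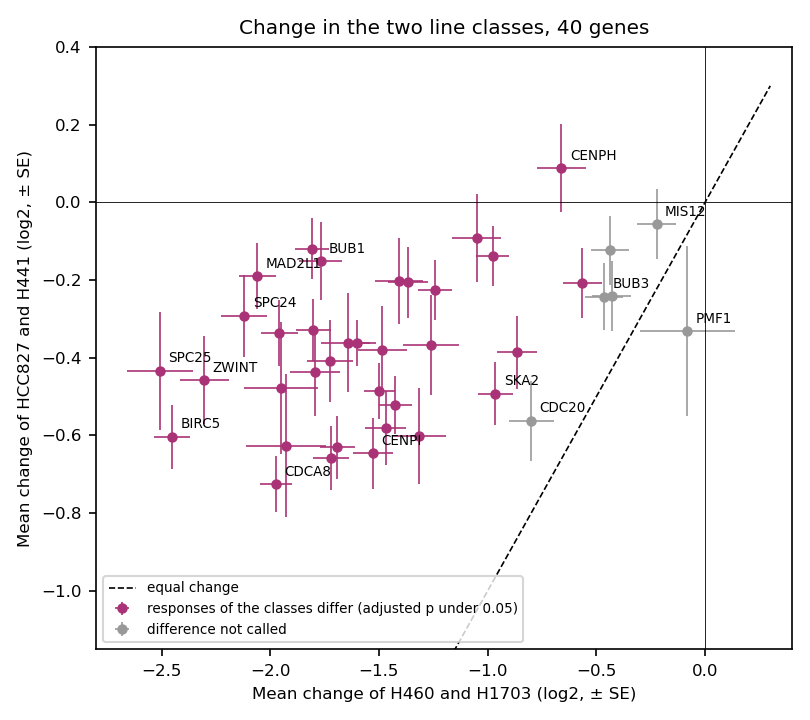
Mean change of H460 and H1703 on the x axis and of HCC827 and H441 on the y axis, both in log2 units with bars for the standard error, 1 point for each of the 40 genes, and a dashed line of equal change. All points lie left of 0 on the x axis, and 39 lie left of the dashed line, with PMF1 on its other side.

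Within the responsive pair the 2 lines also differed. The change was called lower in H460 than in H1703 for 6 members, or 15% of the list, against 7.8% of genes, and called higher for 8, or 20%, against 11.3% of genes. DSN1 fell more in H460, by -1.44 ± 0.25 (adjusted p = 0.000359), and CDC20, MIS12, CENPU, INCENP and SGO2 did too. BIRC5 (0.87 ± 0.16, adjusted p = 0.000677), SPC25 (0.94 ± 0.31, adjusted p = 0.0368), ZWINT (0.88 ± 0.23, adjusted p = 0.00839), SKA3, SKA2, CENPO, KNL1 and CDCA8 fell more in H1703. Only DSN1, INCENP and BIRC5 kept the call in all 25 alternatives. Without H1703 combination library 2, SPC25 had an adjusted p of 0.156. The count of members with a larger fall in H1703 was smaller without vehicle or combination library 2 of either H460 or H1703. Higher calls over all genes became fewer in each of these fits too. The count with a larger fall in H460 was smaller without vehicle library 1 or combination library 1 of either H460 or H1703. It was also smaller without either vehicle library of HCC827. Lower calls over all genes became fewer in all of these fits.

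Between the non-responsive lines, 10 members fell more in HCC827 than in H441, where 1.31% of genes did, and 0 fell less by limma, where 0.697% did. At an unadjusted p under 0.05 the counts were 24 and 0, and by voom 14 and 0. The median difference was -0.52. The 10 were SPC24 (-1.11 ± 0.21, adjusted p = 0.00701), BUB1 (-1.10 ± 0.20, adjusted p = 0.00533), TTK (-0.99 ± 0.21, adjusted p = 0.0151), CDCA8, CENPF, INCENP, KNL1, NDC80, SGO2 and BIRC5. None of the 10 held when the trend and robust settings were left out, where lower calls over all genes went from 314 to 59. The count of members also fell without combination library 2 or vehicle library 1 of HCC827. It fell as well without vehicle library 2 or combination library 1 of H441. Lower calls over all genes became fewer in each of these fits too.

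With vehicle alone, the share of members that differed between the classes was near that of all genes. Of the members, 16 were higher in the responsive lines (28.8% of genes) and 9 lower (27.6%), 62.5% of the list in all, against 56.3% of tested genes. SKA1, at 1.17 ± 0.11, and SPC25, at 1.06 ± 0.15, had the largest differences towards the responsive lines, and CDCA8, at -0.76 ± 0.07, and CDC20, at -0.72 ± 0.10, had the largest towards the non-responsive ones. Per kilobase of exon, vehicle means of the members ran from 16.7 (PMF1) to 779 (CENPF) normalised reads in H460 and from 7.92 (PMF1) to 718 (CENPF) in H1703. In HCC827 the range was 25.6 (PMF1) to 813 (CENPF), and in H441 it was 12.6 (PMF1) to 503 (CENPF).

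Other mitotic genes also fell, though the lists did so to unlike degrees. Of all tested genes, 12.6, 17.6, 5.5 and 1.86% were called lower in H460, H1703, HCC827 and H441. Medians in H460 and H1703 were -1.63 and -1.61 for condensin and -1.21 and -1.29 for further kinetochore and spindle genes. They were -0.66 and -0.30 for cohesin, -0.35 and -0.50 for the anaphase-promoting complex, and -0.40 and -0.66 for regulators of mitotic transcription. Among 28 further kinetochore and spindle genes, 22 were called lower in H460, 20 in H1703 and 14 in HCC827, against 0 in H441. The largest changes over the responsive lines were those of ERCC6L, the PICH helicase of ultrafine bridges, at -2.02 ± 0.17 in H460 and -2.44 ± 0.17 in H1703, and NUSAP1, a spindle protein, at -1.90 ± 0.17 and -2.43 ± 0.17. BOD1, a regulator of the phosphatase PP2A at kinetochores, went the other way and rose in H460 (0.44 ± 0.10) and HCC827 (0.52 ± 0.10). Of 20 genes of the anaphase-promoting complex and its regulators, 12, 13, 6 and 1 were lower in H460, H1703, HCC827 and H441. ESPL1, the protease separase, had changes of -1.55 ± 0.16 and -2.55 ± 0.16 in H460 and H1703, and PTTG1, its inhibitor securin, of -1.62 ± 0.13 and -2.22 ± 0.13. ANAPC16 rose in H460 and CDC16 rose in H460 and H1703.

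Condensin compacts mitotic chromosomes, and 8 of its 8 listed genes were lower in H460 and in H1703, 7 in HCC827 and 0 in H441. NCAPG changed by -1.78 ± 0.12 in H460 and -2.57 ± 0.12 in H1703, and NCAPH by -2.06 ± 0.12 and -2.27 ± 0.12. In the cohesin list, 7 of 13 were lower in H460, 8 in H1703 and 6 in HCC827, against 0 in H441, with ESCO2 (-2.57 and -3.30) and CDCA5 (-2.37 and -2.36) changed most in H460 and H1703. ESCO1, the other acetyltransferase of cohesin, rose in both responsive lines, and the loader MAU2 rose in H1703. Among 16 regulators of mitotic transcription, 9 were lower in H460, 9 in H1703 and 4 in HCC827, against 3 in H441, and 1 was higher, TFDP2 in H1703 (0.52 ± 0.10, adjusted p = 0.000381). TFDP2 is a dimer partner of E2F factors. MYBL2, of the MMB complex, changed by -2.18 ± 0.08, -3.22 ± 0.08, -0.59 ± 0.08 and -0.49 ± 0.08 in H460, H1703, HCC827 and H441, all called. FOXM1, a transcription factor of G2 genes, had changes of -1.70 ± 0.11, -2.90 ± 0.11 and -0.63 ± 0.11 in the first 3 lines and a value of -0.31 ± 0.11 in H441, the last not called.

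General proliferation markers moved alongside, and 11 of 11 were called lower in H460, H1703 and HCC827 and 0 in H441. Their medians were -1.96, -2.14, -0.84 and -0.17, each further below 0 than the members' medians of -1.56, -1.35, -0.65 and -0.13. Over the mean of the responsive lines the largest changes were those of RRM2 (-2.34 ± 0.09, -3.31 ± 0.09, -0.99 ± 0.09 and -0.21 ± 0.09) and TYMS (-1.97 ± 0.10, -3.06 ± 0.10, -1.13 ± 0.10 and -0.06 ± 0.10), enzymes of nucleotide supply, with values in H460, H1703, HCC827 and H441. Their part in the changes of the members was not tested.

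**Figure D5:**
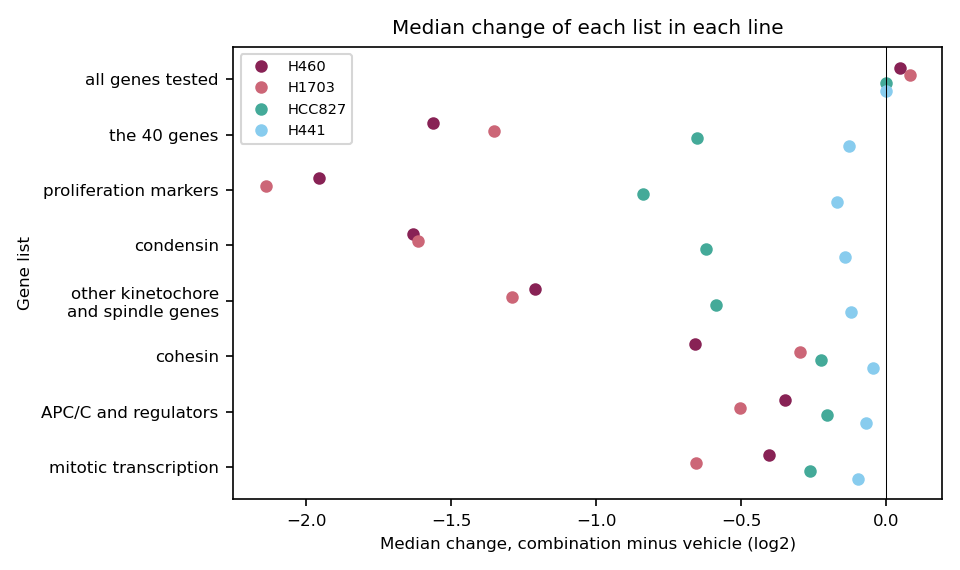
Median change of each gene list in each line, combination minus vehicle in log2 units, with the lists on the y axis and 1 colour a line. The members and the condensin and proliferation lists lie farthest below 0 in H460 and H1703, and H441 medians lie close to 0.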

How the data were processed

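Total RNA was measured in 16 libraries from 4 lines. Per the submitters' processing notes, the tools were Trimmomatic, STAR and featureCounts and the build hg38 (GRCh38), with no versions; library kits were from the labels' protocols. Neither the annotation release nor any use of strand in counting is given there. The authors deposited gene counts on a variance-stabilised log2 scale for 28951 genes, with 0.480538 as the value of 0 reads. Inverting it gave whole reads within 0.02 for 100% of values. GENCODE 29 held 28846 of the gene IDs.

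Genes with a mean at least 1 above the lowest value were tested. One limma fit (limma 3.58.1, R 4.3.3) of the 8 group means on the deposited log2 values, with trend and robust settings, gave 10 contrasts, and p-values were adjusted by Benjamini and Hochberg over 23968 genes at 0.05. Code was tested on simulated data. Alternatives were median centring, quantile normalisation, 2 other filters, a replicate block, a fit with neither trend nor robust settings, a fit of the compared lines alone, voom on recovered reads and leaving out each library. A block within each line was added after seeing the data.

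Members, lists and rules were chosen with earlier results of these data known. Values per library were given for the 2 largest and the smallest change of each role over H460 and H1703, members called in all 4 lines or in none, and the 3 largest class differences. CENPA, DSN1, MIS12, BUB1 and CDC20 were chosen after their values were seen. Other lists were named by their 2 largest changes, and genes of these lists called higher were also named. Promoter windows were searched on both strands for the CHR, CCAAT and E-box letters given above. Reads are not independent molecules, so no counting intervals are given. Tables were made in Python 3.11.15 with pandas 2.3.3 and numpy 2.4.6, and figures with matplotlib 3.10.9.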

Additional observations from a re-analysis of the deposited data

Results flagged for a closer look

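The difference of responses between lines under the same treatment, tested as an interaction in limma with an adjusted p over all tested genes, marked 13 values. Between the line classes, 34 members had a larger fall in H460 and H1703 than in HCC827 and H441, and the 3 largest differences were -2.07 for SPC25, -1.87 for MAD2L1 and -1.85 for BIRC5. Each of these 3 had both responsive lines below both non-responsive lines.

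Between H460 and H1703, 6 members had a larger fall in H460 and 8 a larger fall in H1703. DSN1 stood at -1.44, with the larger fall in H460, while SPC25 at 0.94 and ZWINT at 0.88 had the larger fall in H1703. The SPC25 call was lost without any 1 of the 4 libraries of H460 or any 1 of vehicle library 1, vehicle library 2 and combination library 2 of H1703. The ZWINT call was lost without vehicle library 2 of H460 and without combination library 2 of H1703.

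Between HCC827 and H441, 10 members had a larger fall in HCC827, with SPC24 at -1.11, BUB1 at -1.10 and TTK at -0.99. All 10 calls were lost when the trend and robust settings were left out, where lower calls over all genes went from 314 to 59.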

How the results depend on the processing

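No direction of a called result reversed in any alternative run. Over the libraries left out 1 at a time, which assumes that a lone library varies like the others, members lower ranged from 36 to 39 in H460, 33 to 38 in H1703, 15 to 30 in HCC827 and 0 to 1 in H441, and from 33 to 35 for the difference between the classes. Members higher in H1703 ranged from 0 to 1, those with a larger fall in H460 than H1703 from 2 to 7, those with a larger fall in H1703 from 3 to 8, and those with a larger fall in HCC827 than H441 from 3 to 13. Lower calls over all genes also moved with the library left out, becoming fewer in some fits and more in others. That held in each line, between the classes and between HCC827 and H441. With neither trend nor robust settings, 16 members were lower in HCC827, 0 in H441 and 13 over the non-responsive lines, and the differences gave 2 and 1 between H460 and H1703 and 0 between HCC827 and H441. Over all genes, lower calls in that fit went from 1318 to 631 in HCC827 and from 445 to 148 in H441. Between HCC827 and H441 they went from 314 to 59. With the libraries of the compared lines alone, 16 members were lower in HCC827, where 771 of all genes were, and 3 fell more in H460 than H1703. For H441 that fit called 0 of the 23968 genes, so its 0 members carry no information about the list. Median centring gave 0 in H441 and 3 for the fall larger in H460, the latter also 3 with no filter. The stricter filter and voom each gave 2 in H441. A replicate block gave 2 lower in H441, and so did a block within each line, added after seeing the data. Deviations of same-numbered libraries correlated at 0.173, 0.051, 0.049 and 0.028 in H460, H1703, HCC827 and H441. Over all pairs of groups the median was 0.012 and the range -0.044 to 0.173, so the H460 value was the highest. The main fit did not pair libraries by replicate number, and pairing was not tested beyond these blocks. The cause of these shifts was not tested beyond what each alternative changes. Depth limits PMF1 most, and 2 libraries a group limit every p-value.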
